A study of Boehmeria nivea with 6 samples.

Results

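A total of 45 of 20693 ramie genes stood at 150 FPKM or more in every one of 6 RNA sequencing libraries. FPKM relates the fragments assigned to a gene to its length and to the size of the library. The 45 genes were chosen on these values alone, so their high level and the absence of low values are properties of the choice and not results. Ramie (Boehmeria nivea) is a perennial crop of the nettle family, grown for the long bast fibres of its stem. Leaf, root and stem of plants 30 days old were sampled from QYZM, a wild tenacissima accession, and from ZSZ1, a cultivar. Each organ of each variety gave 1 library, so there are 3 libraries per variety and 2 per organ, none of them replicated. No treatment or introduced allele is named, and how many plants went into a library is not stated.

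Genes whose transcripts are abundant in every organ of a plant are usually the ones that all living cells draw on. In plants in general these include ribosomal proteins, translation elongation factors, ubiquitins, histones and cytoskeletal proteins. Their steadiest members are commonly used as reference genes, to which the transcripts of other genes are compared in quantitative PCR. Which of the 45 ramie genes belong to such classes is not said here, because the table gives identifiers without gene names or products. For the same reason the organ labels could not be checked against named organ markers, and no sequences are shown.

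The mean level over the 6 libraries ran from 218 FPKM to 1964 FPKM among the 45 genes, with a median of 482 FPKM. Where 3 values follow each other for a variety, they are those of leaf, root and stem in that order. Bnt02G003203 had the highest mean. Its values were 2806, 2085 and 1344 FPKM in QYZM and 1838, 2135 and 1573 FPKM in ZSZ1. It was the highest of the 45 in both leaf libraries and in ZSZ1 root. Bnt07G011119 had the next mean, 1510 FPKM, and was the highest of all genes in QYZM root at 4056 FPKM. Its other values were 594 FPKM in QYZM leaf and 1613 FPKM in QYZM stem, and 332, 1682 and 781 FPKM in ZSZ1. Bnt11G016988, with a mean of 1495 FPKM, was at 609, 2585 and 1815 FPKM in QYZM and at 478, 1341 and 2142 FPKM in ZSZ1. Bnt05G008345, with a mean of 1440 FPKM, was the highest of the 45 in both stem libraries. The next means were 983 FPKM for Bnt03G004508 and 975 FPKM for Bnt01G001940. The most abundant genes thus peaked in different organs, with Bnt02G003203 highest in QYZM leaf, Bnt07G011119 in QYZM root and Bnt05G008345 in ZSZ1 stem.

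**Figure D1:**
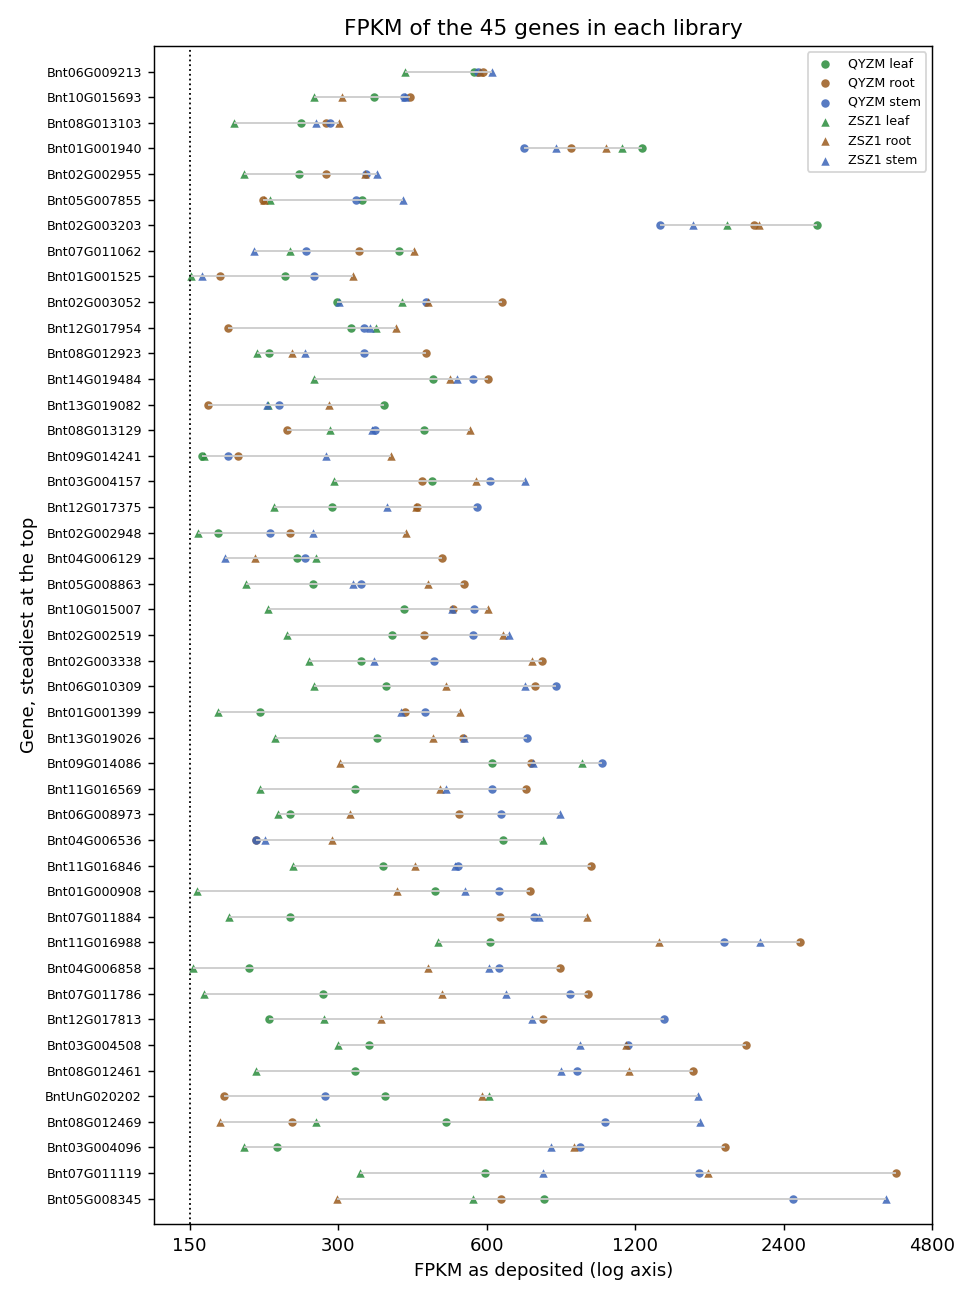
FPKM of each of the 45 genes (rows, ordered from the smallest to the largest ratio of the highest to the lowest library) in each of the 6 libraries, on a log axis; colours mark organs, circles QYZM, triangles ZSZ1, and the dotted line the 150 FPKM that defined the set. The ZSZ1 leaf triangle is the lowest point in 29 of the 45 rows.

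At the edge of the set, the members with the lowest minimum were Bnt04G006858 and Bnt01G001525, whose ZSZ1 leaf values were 152 and 151 FPKM. Just outside were Bnt12G017884 and Bnt01G000191, at 149 FPKM in ZSZ1 leaf and at 149 FPKM in QYZM stem. The ZSZ1 leaf library largely set who belonged. A further 58 genes reached 150 FPKM in 5 of the 6 libraries, and for 46 of these the library missed was ZSZ1 leaf, against 1 to 4 genes for each of the others. Without ZSZ1 leaf 91 genes would have qualified. The ZSZ1 leaf column had the lowest FPKM total of the 6, at 306497, and 260 genes at 150 FPKM or more. The other 5 columns had totals of 368145 to 433435 and 355 to 397 such genes. Read counts per library are not known, so no counting interval is given. Of the 850 genes at 150 FPKM or more in at least 1 library, 185 were there in all root and stem libraries, and 92 of those were below it in both leaf libraries.

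The 45 genes held a smaller part of the summed FPKM in leaf than in root and stem. Their share was 4.52% in QYZM leaf and 5.0% in ZSZ1 leaf. Root had 8.69% in QYZM and 7.01% in ZSZ1, and stem 7.71% and 7.96%. The leaf shares lay below all root and stem shares, and the root shares of the 2 varieties were further apart than those of leaf or stem. No test is attached to these sums, since the members were chosen on the same columns. The sums themselves were 19577 and 15311 FPKM in QYZM and ZSZ1 leaf, 33529 and 25825 FPKM in root, and 30107 and 30858 FPKM in stem. In these bulk samples, fewer cells that carry a transcript and fewer transcripts per cell cannot be told apart.

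The highest genes took a larger part of the leaf totals than of the others. The 100 highest genes of any kind took 31.6% and 31.0% of the QYZM and ZSZ1 leaf totals, against 17.1% to 19.9% in root and stem. Of the 45 genes, 13 and 11 ranked among the 100 highest in QYZM and ZSZ1 leaf, against 31 to 33 in each root and stem library. Their median rank was 132 in QYZM leaf and 148 in ZSZ1 leaf, and 43 to 59 elsewhere. With the 100 highest other genes of each library taken out of its total, a choice made after seeing the data, the share was 6.49% and 7.09% in QYZM and ZSZ1 leaf. It was then 10.2% and 8.23% in root and 8.84% and 9.25% in stem, so the leaf shares were again the lowest.

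The summed level differed less between organs after median-of-ratios scaling, which divides each library by its typical ratio to the mean of all libraries. By construction this places the middle of all genes at the same level in every library. The factors were 0.895 for QYZM leaf and 0.601 for ZSZ1 leaf, and 1.11 to 1.21 for root and stem. The scaled sums were 21863 and 25468 in QYZM and ZSZ1 leaf, 27724 and 23290 in root and 24945 and 27381 in stem. On this scale ZSZ1 leaf lay within the range of the root and stem libraries and QYZM leaf was the lowest of the 6.

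**Figure D2:**
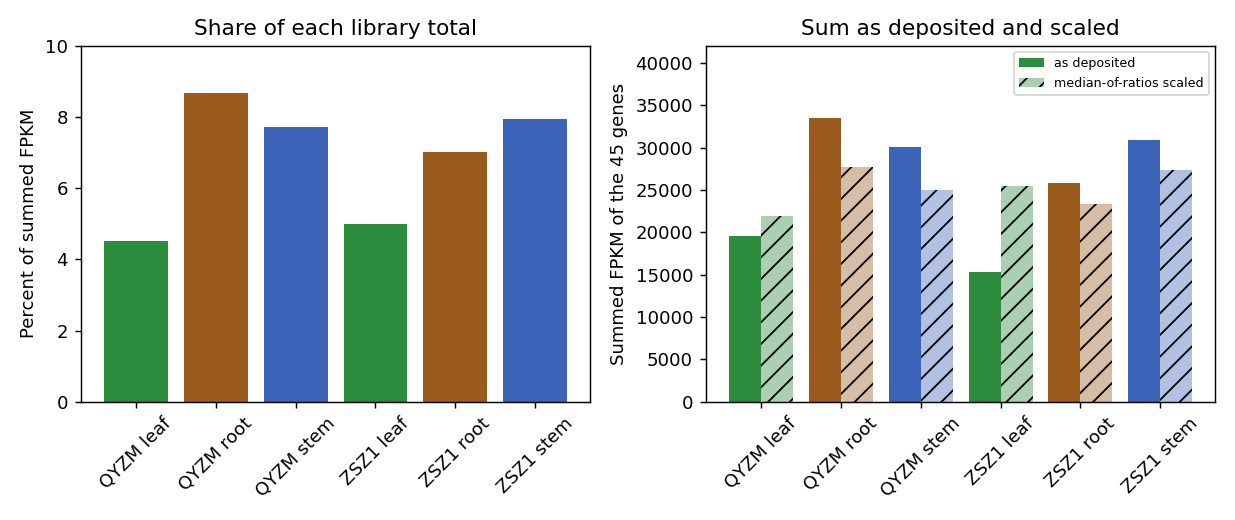
Left, percent of each library's summed FPKM held by the 45 genes; right, their summed FPKM as deposited (solid) and after median-of-ratios scaling (hatched), with 1 library per bar and no error. The leaf shares are 4.52% and 5.0% against 7.01% to 8.69% elsewhere, while the scaled sums run from 21863 to 27724.

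High level in all libraries did not mean an even level. The highest of the 6 values was 1.5 to 13.0 times the lowest, with a median ratio of 2.82. Only 6 of the 45 genes stayed under 2-fold and 14 reached 4-fold or more. Among the 10930 genes at 1 FPKM or more in all 6 libraries the median ratio was 3.35, 13.3% stayed under 2-fold and 39.7% reached 4-fold. Since a minimum of 150 FPKM bounds the lowest value, nothing is read from this comparison. Within a variety, the highest organ exceeded the lowest by a median of 2.09-fold in QYZM and 2.44-fold in ZSZ1. The extremes were 1.04-fold and 8.11-fold in QYZM and 1.13-fold and 13.0-fold in ZSZ1. Over the 10930 genes the median was 2.02-fold in QYZM and 2.76-fold in ZSZ1. After median-of-ratios scaling the medians of the 45 genes were 1.89-fold in QYZM and 1.93-fold in ZSZ1.

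The steadiest gene was Bnt06G009213. It had 564, 589 and 577 FPKM in QYZM and 410, 582 and 614 FPKM in ZSZ1. The 5 libraries other than ZSZ1 leaf thus lay between 564 and 614 FPKM, and the ratio of 1.5 came from ZSZ1 leaf. Bnt10G015693 followed with a ratio of 1.57, at 354, 420 and 408 FPKM in QYZM and 268, 305 and 409 FPKM in ZSZ1. Bnt08G013103 had a ratio of 1.64, with 252, 283 and 289 FPKM in QYZM and 184, 301 and 271 FPKM in ZSZ1. In all 3 of these genes ZSZ1 leaf was the lowest library.

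Bnt01G001940 was steady in another way, with its highest values in leaf. It had 1239, 888 and 715 FPKM in QYZM and 1129, 1046 and 830 FPKM in ZSZ1, a ratio of 1.73, and both varieties showed the same order of organs. Bnt02G002955 (ratio 1.86) was lowest in ZSZ1 leaf at 193 FPKM and highest in ZSZ1 stem at 359 FPKM. Bnt05G007855 (ratio 1.92) was lowest in root of both varieties, at 211 and 212 FPKM, and reached 405 FPKM in ZSZ1 stem. The last of the 8 steadiest were Bnt02G003203 and Bnt07G011062, with ratios of 2.09 and 2.12.

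Which genes count as steadiest depended on the scale. Only 3 of the 8 were also among the 8 steadiest after median-of-ratios scaling, and 6 when each library was set to the same total. Bnt06G009213, Bnt08G013103 and Bnt02G002955 were among the 8 steadiest on all 4 scales computed: as deposited, equal totals, median-of-ratios scaling and division by the geometric mean of the 45 genes. The last was added after seeing the data. Their ratios after median-of-ratios scaling were 1.43, 1.31 and 1.37. For Bnt14G019484, singled out after its values were seen, the ratio of 2.25 as deposited became 1.17, the smallest of the 45. Its deposited values were 466, 602 and 562 FPKM in QYZM and 268, 506 and 523 FPKM in ZSZ1. In contrast, Bnt01G001940 went from 1.73 to 3.17. Over the 45 genes the median ratio after this scaling was 2.48, with 14 genes under 2-fold and 10 at 4-fold or more, and it was 2.59 over the 10930 genes.

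**Figure D3:**
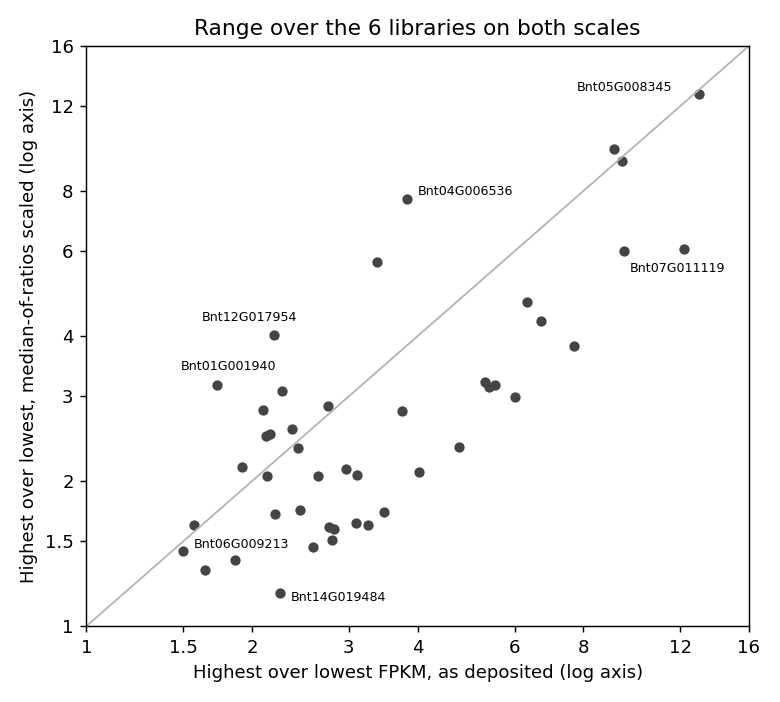
Ratio of the highest to the lowest of the 6 libraries for each of the 45 genes, as deposited (horizontal) and after median-of-ratios scaling (vertical), both on log axes, with the line of equal ratios. Bnt14G019484 falls from 2.25 to 1.17 while Bnt01G001940 rises from 1.73 to 3.17, and Bnt05G008345 is the widest on both.

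As deposited, the 4 widest ranges belonged to genes for which organ held most of the variation. Bnt05G008345, with a ratio of 13.0, was at 783, 640 and 2500 FPKM in QYZM and at 562, 298 and 3859 FPKM in ZSZ1. Both stem values exceeded all other values of the gene. Bnt07G011119 had a ratio of 12.2 and was highest in root of both varieties. Bnt03G004096 (9.48) was low in leaf of both varieties, at 225, 1826 and 928 FPKM in QYZM and 193, 900 and 809 FPKM in ZSZ1. Bnt08G012469 (9.39) stood at 496, 242 and 1042 FPKM in QYZM and at 271, 173 and 1623 FPKM in ZSZ1, so that, like Bnt05G008345, it was highest in stem and lowest in root of both varieties. After median-of-ratios scaling, and relative to the geometric mean of the 45 genes, Bnt07G011119 and Bnt03G004096 were no longer among the 4 widest. BntUnG020202 was then the second widest, with ratios of 9.78 and 9.28.

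Organ accounted for more of the variation of these genes than variety did in the values as deposited. Of the sum of squares of log2 FPKM over the 6 libraries, organ held a median of 74.0%, variety 7.71% and the remainder, which joins organ-by-variety differences and noise, 14.8%. Organ has more degrees of freedom than variety in this split, and no test is attached. The split is given for the members only and without scaling. Both leaf libraries had lower median-of-ratios factors than root and stem, so a leaf offset shared by genes in general enters the organ part. How much of that part is particular to these genes was not tested. Organ was the largest part in 38 genes, the remainder in 6 and variety in 1. That 1 was BntUnG020202, singled out after its values were seen, with 373, 176 and 282 FPKM in QYZM and 605, 587 and 1604 FPKM in ZSZ1. It was higher in ZSZ1 in all 3 organs.

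As deposited, leaf was the lowest organ for 32 of the 45 genes in QYZM, for 32 in ZSZ1, and for 29 in both. Such counts were not made over the 14941 genes tested below, whose median log2 leaf minus root and leaf minus stem differences were both -0.57. Root was lowest in both varieties for 4 genes and stem for 4. The highest organ was shared between varieties by 20 genes, of which 9 were highest in root, 9 in stem and 2 in leaf. After median-of-ratios scaling the preponderance of low leaf values was smaller, with leaf lowest for 19 genes in QYZM, for 16 in ZSZ1 and for 11 in both. The 2 genes highest in leaf of both varieties as deposited were Bnt01G001940 and Bnt04G006536, and after scaling 10 genes were highest there. Across the 45 genes, log2 FPKM of the same organ correlated between varieties at r = 0.841 (leaf), 0.718 (root) and 0.835 (stem). Leaf correlated with root and stem of its own variety at 0.314 to 0.448. Stem and root correlated at 0.783 in QYZM and at 0.429 in ZSZ1. These coefficients are across 45 chosen genes and carry no test.

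Differences between organs were then tested with limma, a linear model with organ and variety terms fitted to log2(FPKM + 1) of all 14941 genes that reached 1 FPKM in 2 libraries or more. All 45 genes passed this filter, as their choice ensured. Calls required a p, adjusted over all tested genes by the Benjamini-Hochberg method, below 0.05 and a difference of at least 2-fold. The model was fitted to the 6 columns that also served to choose the genes. The floor of 150 FPKM bounds how far a member can fall in any organ, and it removed 92 genes that were above it in all root and stem libraries and below it in both leaf libraries. The differences and shares called among the members are therefore truncated by the choice, most of all in the leaf comparisons, and are given as a description. With 2 residual degrees of freedom, a gene's own error term is how far single libraries depart from a sum of organ and variety effects. Limma combined it with a trend of variance on level over all tested genes, which counted as 3.71 further degrees of freedom. The p-values measure only the spread among these libraries. In all, 14 of the 45 genes were called in at least 1 comparison and 31 in none, and 8 were called in 2 or more. These are 31.1% and 17.8% of the members for at least 1 and for 2 or more, against 45.8% and 23.2% of all tested genes. The organ comparisons share libraries and are not separate checks. With no filter on low values, where 18604 genes were tested, limma called none of the 45 in any comparison. At an unadjusted p below 0.05 this fit had 10 (leaf against root), 9 (leaf against stem), 2 (stem against root) and 1 (varieties). Of the 18604 genes it called 22.1%, 16.9%, 0.532% and 0.0%, in the same order of comparisons. For this fit and the alternative fits below, unadjusted counts over all genes are not given, and nothing is read from those of the members.

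Leaf lay below root in 35 of the 45 genes as deposited and in 23 after median-of-ratios scaling. Between these organs 10 genes were called, 1 higher and 9 lower in leaf. They make up 22.2% of the 45, where 35.2% of all tested genes were called, 11.1% as higher and 24.1% as lower. Bnt04G006536 was the gene that was higher in leaf. It stood at 648 and 781 FPKM in QYZM and ZSZ1 leaf against 204 and 292 FPKM in root (log2 difference 1.54 ± 0.37, SE; limma adjusted p = 0.0267). Both leaf values exceeded both root values. The lowest relative to root was Bnt03G004096 (-2.62 ± 0.47, SE; limma adjusted p = 0.0127), followed by Bnt07G011119 (-2.55 ± 0.53, SE; limma adjusted p = 0.0181), whose values are given above and whose leaf and root libraries did not overlap.

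The median leaf minus root difference was -0.75 over the 45 genes and -0.57 over all tested genes. After median-of-ratios scaling the medians were -0.1 and -0.05, and 4 genes were called, 1 higher and 3 lower, against 24.3% of all tested genes. These 4 were all among the 10, and included the 3 named genes. No member was called without QYZM leaf or without ZSZ1 leaf, fits in which limma called none of the 14941 genes and 7 members each had an unadjusted p below 0.05. There was 1 member called without QYZM root and 1 without ZSZ1 root, where 32.5% and 22.3% of all tested genes were called. Bnt04G006536 lost its call in each of these 4 fits (log2 difference 1.36 to 1.71; limma adjusted p = 0.0837 to 0.139), as did Bnt07G011119 (-2.72 to -2.39; 0.0727 to 0.137). Bnt03G004096 lost it in all of them but the fit without ZSZ1 root. Without the variety term Bnt07G011119 also missed the threshold (limma adjusted p = 0.0503).

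Leaf and stem differed in 11 of the 45 genes, 1 higher and 10 lower in leaf, or 24.4% where 29.4% of all tested genes were called (8.13% higher and 21.3% lower). Bnt04G006536 was again the gene higher in leaf, at 204 and 213 FPKM in QYZM and ZSZ1 stem (log2 difference 1.77 ± 0.37, SE; limma adjusted p = 0.0227). Its stem values nearly matched its QYZM root value. The lowest relative to stem were Bnt05G008345 (-2.22 ± 0.62, SE; limma adjusted p = 0.0445) and Bnt03G004096 (-2.05 ± 0.47, SE; limma adjusted p = 0.0281). The median difference was -0.67 over the 45 genes against -0.57 over all tested genes.

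After median-of-ratios scaling the leaf minus stem median of the 45 genes was 0.0, against -0.03 over all tested genes. Bnt04G006536 was then the 1 gene called (2.43; limma adjusted p = 0.0108), where 19.6% of all tested genes were, and Bnt05G008345 and Bnt03G004096 lost their calls (-1.56 and -1.39; limma adjusted p = 0.109 and 0.0839). No member was called without QYZM leaf, without ZSZ1 leaf or without ZSZ1 stem, fits in which 5, 5 and 6 members had an unadjusted p below 0.05. Of all tested genes limma called none in the first 2 of these fits and 9.74% in the third. There were 2 members called without QYZM stem and 7 without QYZM root, against 13.8% and 35.7% of all tested genes. Bnt04G006536 lost its call without either leaf or either stem library, at differences of 1.60 to 1.93 (limma adjusted p = 0.0783 to 0.148). Bnt03G004096 lost it in the same 4 fits (-2.26 to -1.84; 0.0674 to 0.162). Bnt05G008345 lost it without either leaf or either root library and without ZSZ1 stem, where its difference was -1.52 (limma adjusted p = 0.211), and also with a pseudocount of 0.1 or without the variety term (limma adjusted p = 0.0517 and 0.0563). Without the variety term 5 of the 45 and 20.8% of all tested genes were called.

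Stem and root were called different in 1 of the 45 genes, 2.22% where 5.37% of all tested genes were called (3.64% higher and 1.73% lower). This was Bnt08G012469, higher in stem (log2 difference 2.66 ± 0.51, SE; limma adjusted p = 0.047), with both stem values above both root values. The difference was larger for Bnt05G008345 (2.83 ± 0.62, SE), which was not called (limma adjusted p = 0.0628). The median difference over the 45 genes was -0.04, against 0.01 over all tested genes. The call of Bnt08G012469 held without QYZM stem and was lost when any 1 of the other 5 libraries was left out (log2 difference 2.0 to 2.85). Without QYZM leaf or without ZSZ1 leaf its difference stayed at 2.66, and limma called none of all tested genes for stem against root. The call was also lost with pseudocounts of 0.1 and 5, with equal library totals and without the variety term (limma adjusted p = 0.0505 to 0.0565).

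**Figure D4:**
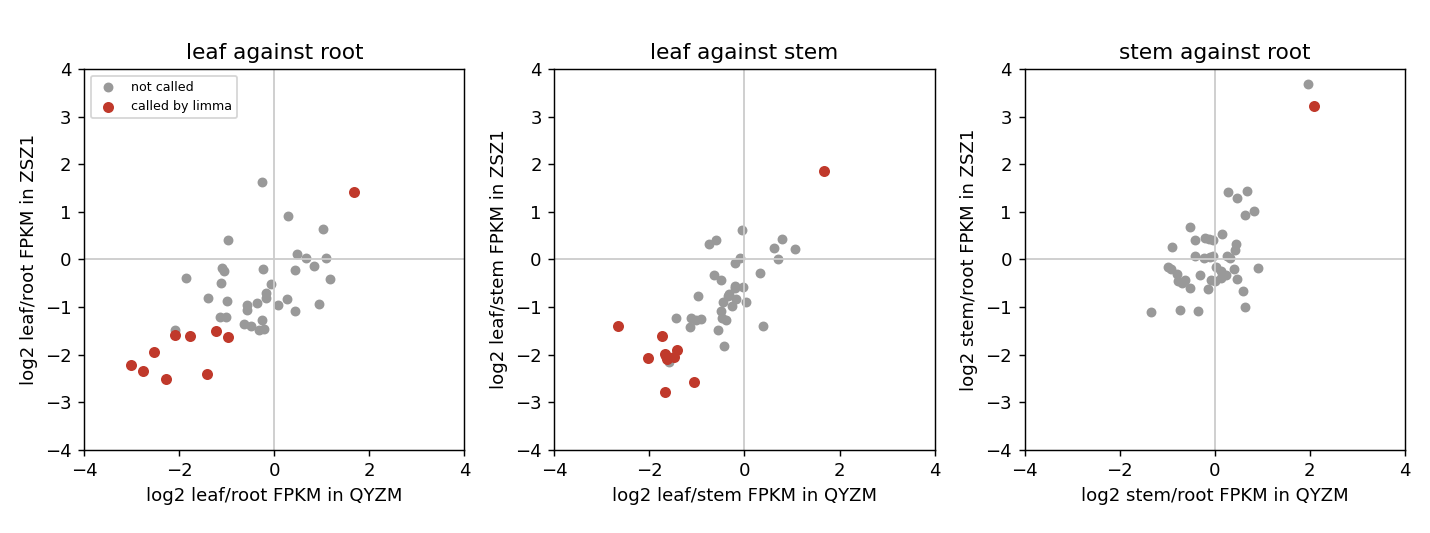
Log2 ratio of FPKM between organs in QYZM (horizontal) and ZSZ1 (vertical) for each of the 45 genes, with genes called by limma in red. In the leaf comparisons 9 and 10 called genes lie low in both varieties and 1 lies high, and in stem against root 1 is called; after median-of-ratios scaling 3 and 0 of the low genes remain called.

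The cultivar and the wild accession were not called different by limma in any of the 45 genes, where 0.663% of all tested genes were called. At an unadjusted p below 0.05 limma had 1 of the 45 and 2301 of the 14941 tested genes. The smallest adjusted p was that of BntUnG020202 (log2 ZSZ1 minus QYZM difference 1.64; limma adjusted p = 0.206). The median difference was -0.25 over the 45 genes and -0.2 over all tested genes, and after median-of-ratios scaling 0.02 and 0.01. Within organs the median ZSZ1 minus QYZM difference of log2 FPKM was -0.45 (leaf), -0.2 (root) and -0.07 (stem). Over the 10930 genes at 1 FPKM or more everywhere it was -0.49, -0.09 and -0.05. In leaf 37 of the 45 genes were lower in ZSZ1, in root 26 and in stem 27. After median-of-ratios scaling, applied here after seeing the data, the medians of the 45 were 0.13 (leaf), -0.07 (root) and 0.02 (stem), and 18, 23 and 21 genes were lower in ZSZ1. The leaf and stem medians thus changed sign. At least 2-fold apart were 1 gene in leaf, 11 in root and 2 in stem, or 2.22%, 24.4% and 4.44% of the 45, against 19.7%, 18.3% and 8.81% of the 10930 genes. After scaling these were 4, 9 and 1 genes, where the shares of the 10930 genes were 9.89%, 17.4% and 8.64%. The members' leaf share was then 8.89%, close to that of the 10930 genes, so the deposited leaf contrast depended on the scale. Their root share stayed above that of the 10930 genes, and their stem share, at 2.22%, stayed below it. The largest single difference was that of BntUnG020202 in stem (log2 2.51 as deposited and 2.61 scaled). With 1 library a side, these counts have no test.

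The 45 genes were spread over all 14 numbered identifier prefixes and the prefix Un. Prefix 02 held the most, with 6 of its 1883 genes, and prefix 14 and Un held 1 each. Per 1000 genes this ranged from 1.17 for prefix 14 to 3.8 for prefix 08. No pair of the 45 had neighbouring identifiers, and the smallest step between them was 7.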

How the data were processed

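The authors deposited 1 table of FPKM for 20693 genes, 1 column per library. Tools listed in the submitters' processing notes are Bowtie2 and RSEM, with no roles. The genome, gene models and strand use remain not given in the sources used here. Depth is unknown. Reads of near-identical genes may have been split between them. Members were the genes at 150 FPKM or more in all 6 columns, as deposited. Members, lists and tests were chosen with earlier results of these data known. Named are the 6 highest by mean, the 8 steadiest and 4 widest by highest over lowest FPKM, the 2 genes each side of the threshold, and per comparison up to 2 called genes in each direction with the same sign throughout. Others named were singled out after their values were seen. The limma fit used a mean-variance trend and a pseudocount of 1 (limma 3.58.1, R 4.3.3). It was also run on simulated data with independent noise, without library-wide shifts or organ-by-variety differences. That run does not bear on how the calls depend on scaling or on single libraries. Fold changes on the log2(FPKM + 1) scale understate those of low genes. Descriptions used Python 3.11.15, numpy 2.4.6 and pandas 2.3.3, and figures matplotlib 3.10.9. The planned grouping by gene product needed names and was not done.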

Additional observations from a re-analysis of the deposited data

Results flagged for a closer look

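A few of the 45 genes differed in opposite directions in the 2 varieties, or between the varieties in opposite directions in 2 organs, by at least 1.5-fold each way. None of these differences was tested, since each rests on 1 library a side. Bnt08G013129 had a log2 leaf minus root difference of 0.93 in QYZM and -0.94 in ZSZ1, and a stem minus root difference of 0.59 and -0.66. Its ZSZ1 minus QYZM difference was -0.63 in leaf and 1.24 in root. Bnt01G001525 had a stem minus root difference of 0.63 in QYZM and -1.01 in ZSZ1. Its ZSZ1 minus QYZM difference was 0.89 in root, against -0.63 in leaf and -0.76 in stem. In Bnt13G019082 the ZSZ1 minus QYZM difference was -0.78 in leaf and 0.82 in root. In Bnt09G014086 it was 0.61 in leaf and -1.28 in root. In Bnt08G012469 it was -0.87 in leaf and 0.64 in stem, and in Bnt05G008345 -1.10 in root and 0.63 in stem. The median leaf difference between the varieties over genes at 1 FPKM or more everywhere was -0.49. After median-of-ratios scaling, added after seeing the data, 5 of these 10 opposite differences were still at least 1.5-fold each way. The ZSZ1 minus QYZM leaf differences of Bnt08G013129, Bnt01G001525, Bnt13G019082 and Bnt08G012469 became -0.06, -0.06, -0.2 and -0.3, and the ZSZ1 leaf minus root difference of Bnt08G013129 became -0.06. Both stem minus root reversals, that of Bnt09G014086 (1.18 and -1.15), and the root and stem reversals of Bnt01G001525 and Bnt05G008345 were the 5 that kept this size.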

How the results depend on the processing

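Variety served as the blocking term, so organs were compared within each variety. The labels give no replicate numbers, and no pairing beyond variety was possible. A minimum of 100 FPKM gave 118 genes and 300 FPKM gave 7. Equal totals of 1000000 gave 383, median-of-ratios scaling 83 (40 of them among the 45) and leaving out 1 library 46 to 91. At 100 FPKM the shares in QYZM leaf, root and stem were 7.83%, 14.7% and 13.0%, and in ZSZ1 8.44%, 12.9% and 13.5%. At 300 FPKM they were 1.56%, 3.36% and 2.11%, and 1.77%, 2.24% and 1.96%, so that leaf was lowest in each variety at all 3 minimums. Without the 100 highest other genes, added after seeing the data, they were 6.49%, 10.2% and 8.84%, and 7.09%, 8.23% and 9.25%. The median ratio of highest to lowest was 2.61 with equal totals, 2.48 with median-of-ratios scaling and 2.45 relative to the members' geometric mean. It was 2.78 at 100 FPKM, 3.38 at 300 FPKM and 2.27 to 2.82 with 1 library left out.

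Counts of called genes moved by over 1.5 times under the settings named next. The cause was not tested for any of them. For leaf against root, no filter on low values gave 0 (10 at an unadjusted p below 0.05 in limma), median-of-ratios scaling 4, 100 FPKM 30, 300 FPKM 2 and leaving out 1 library 0 to 9. As shares of the genes chosen, 100 and 300 FPKM gave 25.4% and 28.6% for leaf against root and 22.9% and 14.3% for leaf against stem, against 22.2% and 24.4% at 150 FPKM. For leaf against stem the same gave 0 (9 at an unadjusted p below 0.05 in limma), 1, 27, 1 and 0 to 8, a mean of at least 5 FPKM gave 17 and no blocking term 5. With this mean, 37.8% of the members and 34.5% of all tested genes were called. For leaf against root these were 28.9% and 41.0%. A pseudocount of 5 left the counts at 10 and 11. It called 22.2% of members and 21.5% of all tested genes for leaf against root, and 24.4% and 18.7% for leaf against stem. Under the other settings the members' share was never above that of all tested genes, so the order of the shares depended on the setting. For stem against root, pseudocounts of 0.1 and 5, no filter, equal totals, no blocking term and 300 FPKM each gave 0 (2 to 5 at an unadjusted p below 0.05 in limma in the first 5). A mean of at least 5 FPKM gave 2, 100 FPKM 2 and leaving out 1 library 0 to 2. The count for the varieties was 0 under all 16 alternatives. With every library kept, limma called only 0.0% (no filter) to 0.863% (pseudocount of 0.1) of all tested genes for the varieties. A count of 0 among the members therefore does not set them apart from other genes, and with no filter no other count was possible. Each named call kept its direction under every alternative run. These genes were named for being called with the same sign throughout, so this is largely a product of the choice and no support is drawn from it.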
